A study of Homo sapiens with 6 samples.

Results

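The genes described here are those of the proteins of the cytosolic ribosome, the particle that translates nuclear-encoded mRNAs. They were chosen by name, as protein-coding GENCODE genes whose symbol starts with RPL or RPS and a digit, together with RPLP0, RPLP1, RPLP2 and RPSA, leaving out the RPS6K kinases and the RPS4Y genes. The rule found 89 of the 58302 genes in the data, and no expression value entered it. Of the 89 genes, 77 encode canonical ribosomal proteins, 46 of them in the large (60S) and 31 in the small (40S) subunit. Another 8 are paralogs (RPL3L, RPL7L1, RPL10L, RPL22L1, RPL26L1, RPL36AL, RPL39L and RPS27L), 3 are read-through genes that join a ribosomal protein gene to its neighbour, and RPS19BP1 encodes a protein that binds RPS19 and is not itself a ribosomal protein. FAU also encodes a ribosomal protein, fused to a ubiquitin-like protein, but its symbol puts it outside the rule.

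RNA was sequenced from cells labelled MDA-MB-231, a breast cancer cell line with mesenchymal and basal-like features, with 3 libraries of cells expressing control shRNA and 3 of cells expressing an shRNA against Smyca, a long non-coding RNA. By the study's figure legend this was Smyca shRNA #1, so the knockdown rests on a single shRNA. The study describes its repeats as biological. Total counts per library were between 14999307 and 16501085.

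A ribosome holds 1 copy of nearly every ribosomal protein, and cells make these proteins in step with each other and with rRNA. Their mRNAs belong to the TOP class, which starts with a C followed by a run of pyrimidines (the 5′ terminal oligopyrimidine tract). Through this tract, mTORC1 and the RNA-binding protein LARP1 control how much of these mRNAs is translated and how stable they are. Most of this control is on translation, which counts of total RNA do not measure.

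The start of the gene shows this tract. RefSeq gave a transcription start for 62 of the 77 canonical genes, and 46 of them (74.2%) had C as the first base, where 11.2% of 15289 protein-coding genes did. A C at the start followed by at least 4 bases that are C or T, read on the transcript strand, was found in 42 canonical genes (67.7%). It was found in 712 of all protein-coding genes (4.66%). Allowing such a tract anywhere from 10 bases before to 14 bases after the start raised this to 54 canonical genes (87.1%) and to 33.1% of all protein-coding genes. The annotated start can differ from the one used in these cells, and a missing tract says only that these letters were not at this position. The tract stood at the annotated start of 15 of 17 other TOP mRNA genes (88.2%), of 5 of 69 mitochondrial ribosomal protein genes (7.25%), and of 1 of 6 paralogs (16.7%). The other TOP mRNA genes were listed as members of that class, so their high share follows from the choice. A RefSeq start was found for 17 of the 24 listed.

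The windows below run from 15 bases before the annotated start to 15 bases from it onwards, in GRCh38.p14 as RefSeq gives it, on the strand of the transcript and 5′ to 3′. Capitals mark the unbroken C and T run that begins with a C at the start. The genes were chosen because the fold changes, the levels or the paralog comparisons turn on them. RPL12, RPLP2, RPS18, RPL9 and RPL32 had the lowest p-values of the set on the side of the control, and RPL7L1 on the side of the knockdown. RPL41 and RPS3 were among the genes with the highest level, and RPL22 and RPS27 stand beside their paralogs.
RPL12, chr9:127451392-127451421, minus strand: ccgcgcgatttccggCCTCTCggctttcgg
RPLP2, chr11:809952-809981, plus strand: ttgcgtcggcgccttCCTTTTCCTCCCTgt
RPS18, chr6:33272060-33272089, plus strand: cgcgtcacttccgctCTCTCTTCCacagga
RPL9, chr4:39458908-39458937, minus strand: gtacgtaatgacgacagacgttctttcttt
RPL32, chr3:12841551-12841580, minus strand: gggttacgacccatcagcccttgcgcgcca
RPL7L1, chr6:42879601-42879630, plus strand: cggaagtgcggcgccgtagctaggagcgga
RPL41, chr12:56116618-56116647, plus strand: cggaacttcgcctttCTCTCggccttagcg
RPS3, chr11:75399503-75399532, plus strand: gcccgcgagccacttCCTTTCCTTTCagcg
RPL22, chr1:6199581-6199610, minus strand: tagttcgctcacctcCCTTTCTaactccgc
RPL22L1, chr3:170870181-170870210, minus strand: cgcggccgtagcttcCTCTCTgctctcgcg
RPS27, chr1:153990747-153990776, plus strand: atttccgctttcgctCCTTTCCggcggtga
RPS27L, chr15:63157463-63157492, minus strand: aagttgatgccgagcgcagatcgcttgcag
The tract is 13 bases long in RPLP2, 11 in RPS3 and 9 in RPS18, and 5 in RPL41. RPL22 and RPL22L1 both carry one, of 7 and 6 bases. RPS27 carries 7 bases where RPS27L has none at its start, and RPL7L1 has none either. RPL9 and RPL32 start with A at the annotated position, and each has a tract nearby.

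Before the results, 3 checks of the libraries are given. MIR23AHG, the gene that RefSeq also names Smyca, was at 24.99, 19.5 and 22.0 normalised CPM (CPM of the TMM-scaled library) in the control and at 10.5, 6.97 and 5.61 in the knockdown, giving a log2 ratio of control to knockdown (log2 fold change) of 1.53 (SE, standard error, 0.26), with adjusted p = 0.111 (edgeR quasi-likelihood test, Benjamini-Hochberg). Markers of the cell line went partly against its label. HNF4A and VIL1, markers of liver and gut epithelium, reached at least 65.4 and 220.5 normalised CPM in every library, and the epithelial EPCAM at least 236.1, while among the 10 mesenchymal or basal markers SPARC alone was below 1 (0.68 or less). The others were expressed, among them VIM between 71.2 and 305.0, MSN between 340.9 and 767.1 and FOSL1 between 81.5 and 254.8. Of these 10 markers, 9 were tested and 9 were higher in the control, 7 of them with an unadjusted p under 0.05 (beside 53.4% and 10.4% of all genes), and their summed level was 802.2 to 1663 normalised CPM in the control and 782.6 to 1105 in the knockdown. Of 12 markers that the line should lack, 7 were tested, with 2 higher and 5 lower in the control, and their sum was 781.0 to 1155 in the control and 1177 to 1186 in the knockdown. PGR was at 0 in every library, and ESR1, KRT20, FABP1 and APOA1 were below 1. The part of these markers in the values of ribosomal protein genes was not tested. The deposited FPKM column of control replicate 2 did not follow its count column. The FPKM values of that library correspond to 16759253 whole reads, and 100% of them came out whole within 0.05 of a read. Results are from the count column unless these FPKM-derived reads are named.

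Ribosomal protein mRNAs made up a large share of the counts. The 89 genes together took 8.20%, 7.65% and 8.87% of all counts in control replicates 1, 2 and 3, and 7.77%, 7.44% and 7.46% in knockdown replicates 1, 2 and 3. The mean was 8.24% ± 0.61 for control and 7.55% ± 0.18 for knockdown libraries (SD, n = 3 each). Control replicates 1 and 3 lay above the knockdown, while control replicate 2 lay within its range, so that the groups overlapped. With the FPKM-derived reads, control replicate 2 was at 8.92%, above control replicate 3. In bulk RNA, a change in the makeup of the culture and a change of RNA per cell cannot be told apart.

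Compared per kb of gene length (normalised CPM divided by the length that the FPKM values imply), the canonical genes covered a wide range. The median over 77 genes was 975, with quartiles of 584.9 and 1602, and 62 genes were above 500. RPL41, the smallest protein of the ribosome, had the highest mean level of 4226 and ranged from 3260 to 4777 over the 6 libraries. RPS2 followed with 3987 and RPS3, which lies at the mRNA entry channel, with 3612, while RPL8 and RPL13A were at 3600 and 3395. The ranges of these 5 genes over the libraries overlapped, and their order was not tested. It also depends on the length used. The implied length was shorter than the coding sequence in 6 of 77 canonical genes and up to 8.79 times as long in others, so it is not the length of the mRNA in each case. Per kb of coding sequence, an alternative chosen after the data had been seen, the median was 1838, and RPL41, RPL39, RPL13A, RPS3 and RPS2 were highest, so that 4 of the 5 were shared. The stalk proteins, which recruit the translation factors, were at 2837 (RPLP0), 1236 (RPLP1) and 1819 (RPLP2) per kb of the implied length. Per kb of coding sequence the order turned, with 2634 for RPLP0, 3470 for RPLP1 and 2746 for RPLP2.

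**Figure D1:**
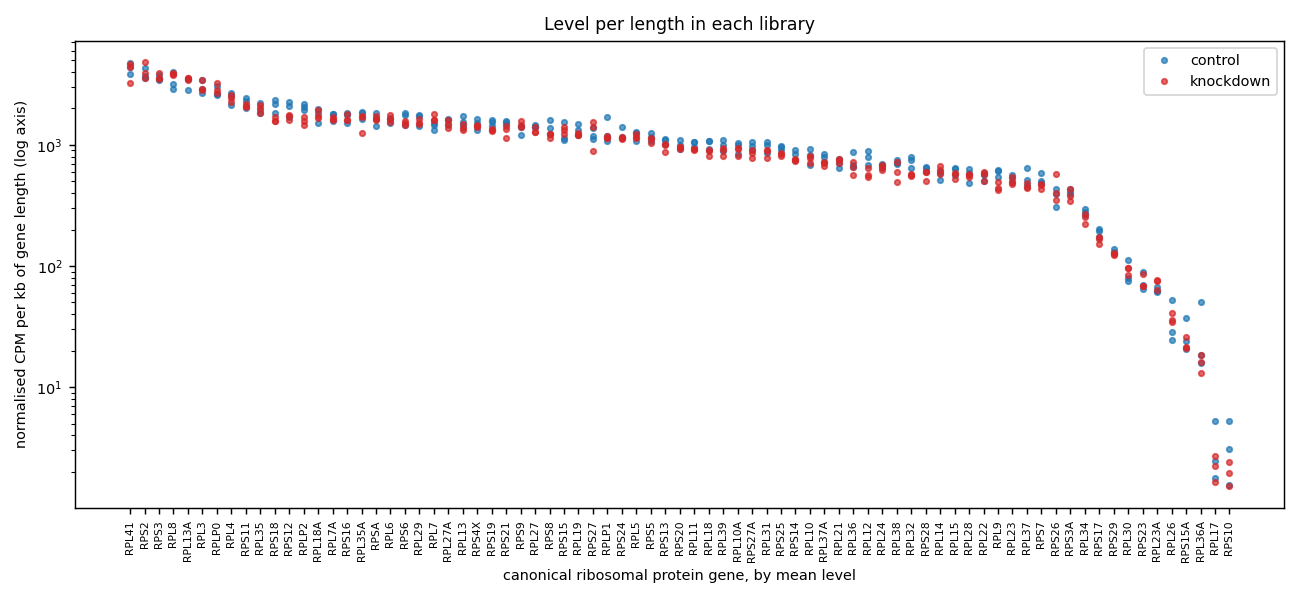
Level of the 77 canonical ribosomal protein genes in each library, as normalised CPM per kb on a log axis, with genes ordered by their mean and points coloured by group (3 control, 3 knockdown). Of the genes, 62 lie above 500, and 8 fall below 100, down to RPL17 and RPS10 near 2.7 and 2.6.

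In all, 8 canonical genes were below 100 per kb of the implied length, and 5 per kb of coding sequence (RPS10, RPL17, RPL36A, RPS15A and RPL26). The 8 were RPS10 (2.63), RPL17 (2.68), RPL36A (22.0), RPS15A (25.1), RPL26 (36.1), RPL23A (67.7), RPS23 (74.4) and RPL30 (90.2). RPS10, RPL17 and RPL36A are the 3 genes with a read-through partner in the rule, with which they share 31.5%, 24.9% and 8.40% of their exon bases on the same strand. RPS10-NUDT3, RPL17-C18orf32 and RPL36A-HNRNPH2 had 0 counts in all 6 libraries. Ribosomal protein genes also have many processed pseudogenes, copies of the mRNA in the genome. Counts assigned to pseudogenes of the same name made up 58.6% of the sum of gene and pseudogenes for RPL17, 45.4% for RPS10, 30.6% for RPL23A and 20.3% for RPL36A. For RPL26, RPS15A, RPS23 and RPL30 this share was 2.75%, 2.6%, 0.16% and 0.09%. RPL26 and RPS15A also share 14.5% and 3.26% of their exon bases with other genes on the same strand. The part of read sharing in these low levels was not tested, and the levels of these genes are uncertain.

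The control and the knockdown were compared gene by gene over all 15075 genes with enough counts, and 83 of the 89 members were among them. RPL10L and RPL39L, paralogs known mainly from the testis, had 0 counts in each library. RPL3L, the paralog of striated muscle, had 7, 2 and 2 counts in the control and 3, 8 and 7 in the knockdown. These 3 paralogs and the 3 read-through genes were not tested.

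No ribosomal protein gene passed the study's criteria for a DEG, a ratio of control to knockdown of at least 1.5 or at most 0.66 with an adjusted p under 0.05. The criteria were met by 0 of 83 members and by 4 of 15075 genes (0.0265%) with edgeR's quasi-likelihood test. The targeted MIR23AHG was not among these 4 (adjusted p = 0.111, edgeR, Benjamini-Hochberg). The study, with DESeq and the same criteria, reported far more DEGs. With so few calls over all genes, 0 among 83 says little about the members. The smallest adjusted p of a member was 0.193, that of RPL9 (edgeR, Benjamini-Hochberg), and DESeq2's Wald test also called 0 members, where it called 836 genes. The fold changes were small. Over the members the median log2 fold change, control over knockdown, was 0.091, with quartiles of -0.030 and 0.19, beside a median of 0.036 and quartiles of -0.23 and 0.36 over all genes tested. With all genes of at least 1 count the order turned, with medians of 0.051 and 0.114. Of the 77 canonical genes, 69 had a ratio between 1.2 and its inverse, and the median standard error of their log2 fold changes was 0.14.

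More members had a positive than a negative log2 fold change, 59 against 24 (71.1% positive), where 53.4% of all genes were positive. The number depended on the libraries, since 48 members were positive without control replicate 3 and 64 without control replicate 2. The median log2 fold change was 0.032 and 0.157 in these 2 cases, and 0.172 with the FPKM-derived reads of control replicate 2. An unadjusted p under 0.05 was reached by 5 members higher in the control (6.02%), where 10.4% of all genes tested did so. On the other side it was reached by 1 member (1.2%), where 8.74% of all genes did. By the count columns both shares were below those of all genes. With the FPKM-derived reads of control replicate 2 the first comparison turned, with 13 members (15.7%) beside 10.6% of all genes. The 5 became 2 without control replicate 1 (beside 6.17% of all genes in that fit), 3 without control replicate 3 (15.7%), 2 without knockdown replicate 1 (8.53%), 1 without knockdown replicate 2 (6.02%) and 0 without knockdown replicate 3 (10.7%). The 1 became 3 without control replicate 3, where the share of all genes on that side was 13.9%. It became 0 without control replicate 1 (5.02%), control replicate 2 (5.76%), knockdown replicate 2 (4.75%) or knockdown replicate 3 (8.39%). The replicate block gave 3 and 0, beside 9.23% and 7.81% of all genes. The share over all genes moved between these fits as well, so the counts are not read as changes particular to the members. The groups did not overlap in 14 members that were higher in the control (16.9%, beside 12.4% of all genes) and in 2 that were lower (2.41%, beside 12.5% of all genes).

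**Figure D2:**
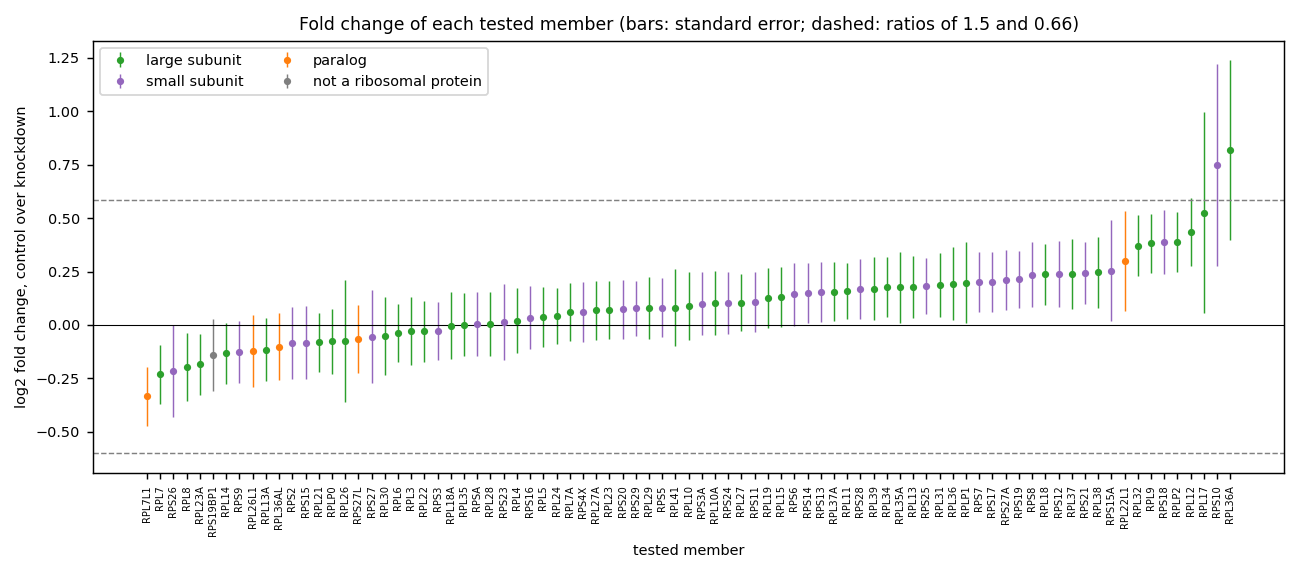
Log2 fold change, control over knockdown, of the 83 tested members in rising order, with bars of 1 standard error and colours for large subunit, small subunit, paralogs and RPS19BP1. The dashed lines mark ratios of 1.5 and 0.66, and only RPL36A and RPS10, both with long bars, lie beyond the upper line.

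The subunits gave like values. Of 46 large subunit genes 33 had higher control values, with a median log2 fold change of 0.086, and of 31 small subunit genes 25 did, with a median of 0.11. Genes with the start tract had a median of 0.12 (42 genes), and those with a RefSeq start but no tract also 0.12 (20 genes). The median was 0.072 in 28 canonical genes that hold a snoRNA gene, the host genes of rRNA-modifying RNAs, and 0.13 in the other 49. None of these differences was tested.

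The 5 members with an unadjusted p under 0.05 on the side of the control were RPL12, RPLP2, RPS18, RPL9 and RPL32, with ratios of about 1.3. All 5 had at least 5475 counts in every library, and in each of them every control library was above every knockdown library. RPL12 lies at the base of the stalk, and its level was 827.0, 623.4 and 726.6 normalised CPM in the control and 592.8, 499.2 and 519.7 in the knockdown. Control replicate 1 was the highest and knockdown replicate 2 the lowest. Averages were 725.7 ± 101.8 and 537.2 ± 49.2 (SD, n = 3 each), giving a log2 ratio of 0.43 (SE 0.16), with adjusted p = 0.197 (edgeR quasi-likelihood test, Benjamini-Hochberg).

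RPLP2, the stalk protein P2, was at 1080, 1002 and 1140 normalised CPM in the control and at 819.1, 887.3 and 756.3 in the knockdown. Its log2 fold change was 0.39 (SE 0.14), with adjusted p = 0.194 (edgeR, Benjamini-Hochberg). By the count columns, the groups overlapped in the partner proteins of the stalk. RPLP1 was at 1130, 1039 and 1634 in the control and at 1092, 1093 and 1132 in the knockdown, with control replicate 2 below all 3 knockdown libraries. This position holds for its count column alone, since the FPKM-derived reads of that library were 26227 for RPLP1 where the column had 16879 counts and control replicate 3 had 25520. RPLP0 was at 2701, 2339 and 2276 in the control and at 2523, 2346 and 2846 in the knockdown. Their log2 fold changes were 0.20 (SE 0.19) and -0.077 (SE 0.15). The differences between the stalk genes were not tested.

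RPS18, at the head of the small subunit, was at 1539, 1295 and 1674 normalised CPM in the control and at 1212, 1117 and 1117 in the knockdown, giving a log2 ratio of 0.39 (SE 0.15). RPL9 was at 512.2, 462.8 and 520.5 in the control and at 414.4, 371.5 and 361.5 in the knockdown, giving a log2 ratio of 0.38 (SE 0.14). RPL32 was at 782.5, 673.4 and 836.7 in the control and at 602.2, 592.9 and 578.5 in the knockdown, giving a log2 ratio of 0.37 (SE 0.14). In all 3 genes control replicate 2 was the lowest of the control and the nearest to the knockdown. The adjusted p-values were 0.215, 0.193 and 0.211 for RPS18, RPL9 and RPL32 (edgeR, Benjamini-Hochberg).

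RPL36A lay highest in the set by its log2 ratio of 0.82 (SE 0.42, adjusted p = 0.324, edgeR with Benjamini-Hochberg), and its groups overlapped. Its counts were 195, 226 and 596 in the control and 219, 195 and 152 in the knockdown, so that by the count columns only control replicate 3 lay apart. The FPKM-derived reads of control replicate 2 were 700 for RPL36A and 58 for RPS10, in place of 226 and 36, so that control replicate 3 did not stand alone with that column. RPS10, with 18, 36 and 58 counts in the control and 17, 27 and 21 in the knockdown, and RPL17, with 19, 26 and 54 against 23, 17 and 27, had the same highest library. For RPL17 the FPKM-derived reads of control replicate 2 were 36, still below the 54 counts of control replicate 3. Of the 8 genes with a level below 100 per kb, 7 were highest in control replicate 3 by the count columns. The FPKM-derived reads of control replicate 2, not scaled for library size, were 749 for RPS15A, 572 for RPL26, 1269 for RPL30 and 1633 for RPS23. Control replicate 3 had 630, 487, 1100 and 1490 counts for these genes. Without control replicate 3 the log2 ratio was 0.095 for RPL36A, 0.25 for RPS10, -0.057 for RPL17 and -0.035 for RPS15A.

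On the side of the knockdown, RPL7L1 and RPL7 were the members whose groups did not overlap. RPL7L1, a relative of RPL7 with a role in making the large subunit, was at 208.6, 224.6 and 220.2 normalised CPM in the control and at 249.0, 273.5 and 301.1 in the knockdown. Its log2 fold change was -0.33 (SE 0.14), with an adjusted p of 0.238 (edgeR, Benjamini-Hochberg). RPL7 itself was at 1250, 1143 and 1299 in the control and at 1388, 1391 and 1553 in the knockdown, giving a log2 ratio of -0.23 (SE 0.14). The other low values came from overlapping groups. RPS26, which contacts the mRNA near the exit channel, was at 310.3, 396.5 and 434.0 in the control and at 403.2, 571.2 and 351.7 in the knockdown, and knockdown replicate 2 alone was far above the others. The log2 fold changes were -0.22 (SE 0.22) for RPS26, -0.20 (SE 0.16) for RPL8, -0.18 (SE 0.14) for RPL23A and -0.14 (SE 0.17) for RPS19BP1.

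Ribosomal proteins known for other roles had small fold changes as well. RPL5 and RPL11 bind 5S rRNA and, when ribosome assembly fails, inhibit MDM2 and so raise p53. RPL11 was at 766.5, 689.2 and 761.6 normalised CPM in the control and at 647.8, 670.8 and 666.6 in the knockdown, without overlap, and its log2 fold change was 0.16 (SE 0.13). RPL5 differed by 0.036 (SE 0.14), with overlapping groups. RPS19, the gene most often mutated in Diamond-Blackfan anaemia, was at 1257, 1120 and 1199 in the control and at 1027, 1050 and 1009 in the knockdown, giving a log2 ratio of 0.21 (SE 0.13). The groups did not overlap there either.

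RPS6, the substrate of the S6 kinases, had a log2 ratio of 0.14 (SE 0.15), and RPS14, lost in the 5q- syndrome, one of 0.15 (SE 0.14). RPS27A, made as a fusion with ubiquitin, was at 679.3, 633.7 and 727.7 normalised CPM in the control and at 626.2, 599.0 and 540.0 in the knockdown, giving a log2 ratio of 0.21 (SE 0.14). RPSA, also known as the laminin receptor precursor, differed by 0.0026 (SE 0.15). RPL39 at the exit tunnel differed by 0.17 (SE 0.15) and RPS27 by -0.054 (SE 0.22). Among these 6 genes only RPS27A had groups that did not overlap. Beside the genes given above, the genes of this kind were RPL18, RPS7, RPS21, RPS25, RPS28 and RPS29, named after their values had been seen, with log2 fold changes between 0.079 (RPS29) and 0.24 (RPS21).

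Per kb of length, 3 of the 5 tested paralogs were far below their partners. RPL22L1 was at 26.1 where RPL22 was at 555.5, and RPS27L at 15.1 where RPS27 was at 1250. RPL26L1 was at 52.7 and RPL36AL at 229.8, above the uncertain 36.1 and 22.0 of RPL26 and RPL36A, and RPL7L1 at 150.1 beside 1546 for RPL7. RPL22L1, which takes the place of RPL22 when that protein is lost, was at 20.6, 21.6 and 34.3 normalised CPM in the control and at 21.1, 23.3 and 17.6 in the knockdown. Its log2 fold change was 0.30 (SE 0.23) and that of RPL22 was -0.030 (SE 0.14). RPS27L, a p53 target, differed by -0.065 (SE 0.16), RPL26L1 by -0.12 (SE 0.17) and RPL36AL by -0.10 (SE 0.16), all with overlapping groups.

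The libraries of a group also differed from each other. For each canonical gene the log2 normalised CPM was set against its own mean of the 6 libraries, after adding 0.5 CPM. The median of these deviations was 0.087, -0.081 and 0.16 in control replicates 1, 2 and 3 and -0.057, -0.031 and -0.069 in the knockdown replicates. Control replicate 3 was the highest library for 43 of 77 genes and control replicate 1 for 20, while control replicate 2 was the highest for 0 and the lowest for 26. Knockdown replicate 3 was the lowest for 26 genes as well. So control replicate 2 lay on the side of the knockdown, and its deviations were the lowest of all by their median. For the median over all genes tested, the deviations stayed between -0.017 and 0.017 in all 6 libraries.

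**Figure D3:**
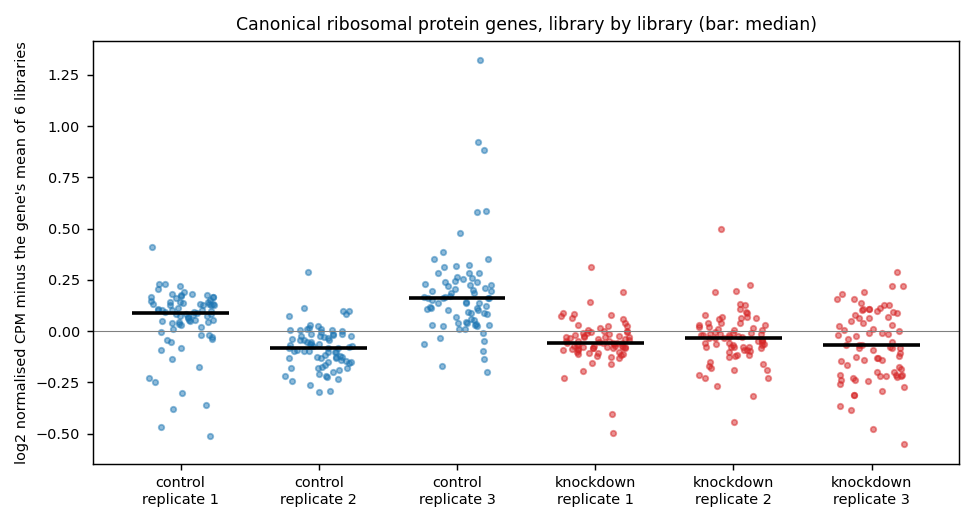
Deviation of each of the 77 canonical genes from its own mean of the 6 libraries, in log2 normalised CPM, with a black bar at the median of each library. Control replicates 1 and 3 lie above 0 at 0.087 and 0.16, control replicate 2 lies below at -0.081, and the knockdown replicates lie between -0.069 and -0.031.

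Because control replicate 2 decides whether the groups overlap, its columns were set side by side. The reads behind its FPKM column differed from its own counts by a median of 0.26 (absolute log2 difference over canonical genes) and from the counts of control replicate 3 by a median of 0.043. The count column of control replicate 2 differed from control replicate 3 by 0.23. With the FPKM-derived reads, 13 members (15.7%) had an unadjusted p under 0.05 on the side of the control and 1 (1.2%) on the other side, where 10.6% and 9.81% of the 15190 genes tested in that fit did. The number of member DEGs was 0 in that fit too (edgeR quasi-likelihood test). Which of the columns belongs to the library cannot be told apart from these data.

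The size of the protein moved with the deviations in some libraries. Coding sequences ran from 75 bases (RPL41, stop codon left out) to 1281 bases (RPL4), with a median of 456. In knockdown replicate 3 the 38 shorter genes had a median deviation of -0.14 and the 39 longer ones of 0.0012, and Spearman's rho between coding length and deviation was 0.50. In control replicate 3 the medians were 0.18 and 0.11 and rho was -0.39. In the other 4 libraries rho was between -0.25 and 0.18. Across all 12506 genes with a coding length it was 0.17 in knockdown replicate 3 and -0.17 in control replicate 3, so that the sign was the same and the size smaller. The signs differed in control replicate 2 (-0.245 in canonical genes, 0.051 in all) and knockdown replicate 1 (0.179 and -0.073). They were the same in control replicate 1 (0.113 and 0.118) and knockdown replicate 2 (-0.177 and -0.117). The spread of deviations was also widest in knockdown replicate 3, with an interquartile range of 0.28 where knockdown replicate 1 had 0.077. The median log2 fold change was 0.16 in the shorter and 0.08 in the longer genes, with a rho of -0.34. These values are across genes of the same libraries, whose deviations share 1 mean per gene, and carry no test. The part of fragment size or RNA quality was not tested.

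**Figure D4:**
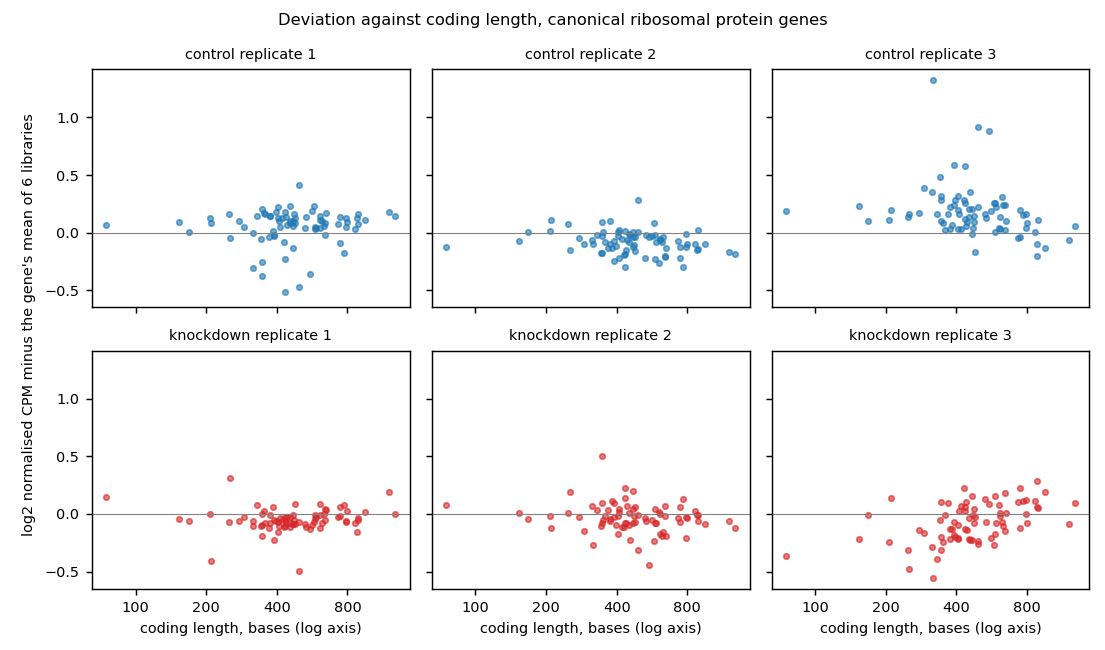
Deviation of the 77 canonical genes from their own mean of the 6 libraries (log2 normalised CPM) against coding length in bases on a log axis, with a panel for each library. In knockdown replicate 3 short genes lie low and long genes near 0 (rho 0.50), and in control replicate 3 the slope is the opposite (rho -0.39).

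The mitochondrial ribosomal proteins, which build the separate ribosome of the mitochondrion, are the nearest set to compare. Of 78 genes 77 were tested, and 63 were lower in the control, with a median log2 fold change of -0.175 beside 0.10 for the canonical cytosolic genes. An unadjusted p under 0.05 was reached by 13 on that side, beside 8.74% of all genes, and by 0 on the other, beside 10.4%, and 0 were DEGs (edgeR quasi-likelihood test). The lowest was MRPS27 with -0.62 (SE 0.17) and the highest MRPL38 with 0.71 (SE 0.36). MRPL38 had few counts, 54, 32 and 65 in the control and 31, 32 and 27 in the knockdown, and its groups overlapped. The median deviations of this set were -0.22, -0.12 and 0.018 in the control replicates and 0.026, 0.24 and 0.044 in the knockdown replicates. Control replicate 3 was close to knockdown replicates 1 and 3 there, where in the cytosolic set it was the highest library. The difference between both sets was not tested.

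The other TOP mRNA genes, mostly translation elongation and initiation factors, were split evenly. Of 23 tested genes 11 were higher and 12 lower in the control, with a median log2 fold change of -0.028. The lowest was EEF1D with -0.65 (SE 0.19) and the highest FAU with 0.14 (SE 0.14). EEF1G had 0 counts in every library and was not tested. Of 8 dedicated chaperones, which bind single ribosomal proteins as they are made, 6 were lower in the control, and the values ran from -0.74 (SE 0.19) for GRWD1, the chaperone of RPL3, to 0.12 (SE 0.15) for HEATR3.

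Among 21 genes that act on TOP mRNAs or in the mTORC1 pathway, 14 were lower in the control, with a median log2 fold change of -0.17. An unadjusted p under 0.05 was reached by 7 of them on that side, beside 8.74% of all genes, and by 1 on the other, beside 10.4%, and 0 were DEGs (edgeR quasi-likelihood test). LARP1, which binds the TOP tract, was at 334.1, 339.7 and 331.9 normalised CPM in the control and at 546.5, 562.8 and 519.0 in the knockdown, far apart beside the small spread within each group. Its log2 fold change was -0.70 (SE 0.13), with an adjusted p of 0.111 (edgeR, Benjamini-Hochberg), and it is named here after its values had been seen. The lowest value of the list was that of EIF4G1, the scaffold of the cap-binding complex, with -0.87 (SE 0.19, adjusted p = 0.114, edgeR with Benjamini-Hochberg). The highest was that of DDIT4, an inhibitor of mTORC1, with 2.35 (SE 0.78), whose levels overlapped between the groups at 1289, 852.7 and 112.4 in the control and 211.0, 56.8 and 175.0 in the knockdown.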

How the data were processed

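RNA of cells labelled MDA-MB-231 was sequenced in 3 control and 3 Smyca knockdown libraries. The authors removed rRNA, made strand-specific libraries, mapped paired reads to GRCh38/hg38 (TopHat2 2.0.12) and obtained gene counts from HTSeq. The strand setting and annotation release of the counting are not given in the sources used here. The authors deposited raw read counts and FPKM values per Ensembl gene. The deposited counts were used for all tests, and the deposited FPKM values for gene lengths and for checking columns. In 5 libraries the FPKM followed the counts within 1%, and in control replicate 2 it did for 1.62% of genes, with 3357 genes at 0 counts and an FPKM above 0.

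Symbols came from GENCODE release 44 (57532 of 58302 genes). The analysis used edgeR 4.0.16 under R 4.3.3 (TMM, filterByExpr, quasi-likelihood test, Benjamini-Hochberg over 15075 genes, biological coefficient of variation 25.2%). The DESeq of the study was not used. The code was tested on simulated data. Members and gene lists were chosen with earlier results of these data known. Genes named were the 6 highest and 6 lowest log2 fold changes with a mean of at least 100 counts, the 5 highest and 5 lowest levels per length, all paralogs and read-through genes, 13 genes of known role, MIR23AHG, and the extremes of each list. Alternatives were other normalizations and filters, DESeq2 1.42.0, the replicate block, each library left out, the FPKM-derived reads of control replicate 2, pseudogene counts added, and the canonical genes alone. Replicate numbers from the labels were not taken as pairs, since deviations of same-numbered libraries correlated by 0.057, 0.087 and 2.14e-05.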

Additional observations from a re-analysis of the deposited data

How the results depend on the processing

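The count of 0 DEGs among the members (edgeR quasi-likelihood test, with 5 members higher and 1 lower in the control at an unadjusted p under 0.05) was the same in every alternative run, DESeq2 included. Over all genes these fits called between 0 and 1628 DEGs. With the replicate block and without control replicate 1, knockdown replicate 1 or knockdown replicate 2 they called 0 genes, so 0 members was fixed there, while 1628 genes were called without control replicate 3, 916 with all genes of at least 1 count and 836 with DESeq2. The median log2 fold change of the members lay between 0.032 (without control replicate 3) and 0.157 (without control replicate 2) with a library left out, and between 0.051 and 0.172 otherwise. Total counts without a composition factor moved the median of all genes to 0.106 and that of the members to 0.159. With all genes of at least 1 count the medians were 0.114 and 0.051, so that the members lay below all genes, the reverse of the order with filterByExpr (0.036 and 0.091). The 5 members higher in the control at an unadjusted p under 0.05 became 2 with all genes of at least 1 count (7.55% of all genes) and 13 with the FPKM-derived reads of control replicate 2 (15.7% of members beside 10.6% of all genes). With the replicate block the counts were 3 and 0 (9.23% and 7.81% of all genes), and the pairing changed no DEG call of a member. With a library left out the count ran from 0 to 6. It was 2 without control replicate 1 (6.17% of all genes in that fit), 3 without control replicate 3 (15.7%), 2 without knockdown replicate 1 (8.53%), 1 without knockdown replicate 2 (6.02%) and 0 without knockdown replicate 3 (10.7%). The 1 member lower in the control became 0 with total counts (5.86% of all genes) and among canonical genes alone, and ran from 0 to 3 with a library left out, with 3 without control replicate 3 (13.9% of all genes) and 0 without control replicate 1 (5.02%), control replicate 2 (5.76%), knockdown replicate 2 (4.75%) or knockdown replicate 3 (8.39%).

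Of 504 log2 fold changes of 36 named genes under the alternatives, 472 kept their direction and side of the threshold and 29 changed sign. RPSA was at -0.013 with RLE size factors and with DESeq2, -0.030 with all genes of at least 1 count, -0.0043 with the replicate block, and -0.080 with the FPKM-derived reads. With total counts RPS27L was at 0.0013, RPS3 at 0.040, RPL22 at 0.039 and RPS27 at 0.012, and with the FPKM-derived reads RPL22 was at 0.013 and RPS27 at 0.084. With a library left out, values ran from -0.081 to 0.090 for RPSA, from -0.11 to 0.024 for RPL22, from -0.27 to 0.092 for RPS27, from -0.13 to 0.038 for RPS27L, from -0.37 to 0.0063 for RPS26, from -0.071 to 0.0095 for RPS3, from -0.19 to 0.039 for RPS2, from -0.070 to 0.17 for RPL41, from -0.057 to 0.81 for RPL17, from -0.035 to 0.42 for RPS15A, from -0.019 to 0.11 for RPL5 and from -0.034 to 0.32 for RPLP1. MIR23AHG was at 1.49 with all genes of at least 1 count, 1.51 with DESeq2 and 1.53 without control replicate 3, with an adjusted p under 0.05 in these 3 cases. The causes were not tested. At a median standard error of 0.14, differences of the size seen in most members could not be told from 0.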
